A study of Caenorhabditis elegans with 9 samples.

Results

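Translation factors and aminoacyl-tRNA synthetases of *Caenorhabditis elegans* were followed through 24 h of solid dietary restriction (sDR). The genes were chosen by their symbols alone, as those named *eif*, *eef*, *ife*, *ifg*, *iff* or *inf* with a number, or as tRNA synthetases (a letter, or *ep*, followed by *ars* and a number). This rule found 64 of 46926 genes in the deposited table, and all 64 were among the 14332 genes tested. All worms were wild-type N2 that were fed HT115 bacteria until adult day 1. They were then moved to NGM plates with kanamycin at 10 µg per ml, which all conditions shared, and were harvested after 24 h with undiluted bacteria (AL, ad libitum), diluted bacteria (DR1) or no bacteria (DR0). RNA of whole worms was sequenced after polyA enrichment, with 3 libraries per condition.

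Translation starts when the cap-binding protein eIF4E, the scaffold eIF4G and the helicase eIF4A bring an mRNA to a small ribosomal subunit that carries eIF3, eIF1, eIF1A and the initiator tRNA held by eIF2. The elongation factor eEF1A then delivers each aminoacyl-tRNA, the eEF1B complex recharges eEF1A with GTP, eEF2 moves the ribosome by a codon, and eIF5A relieves ribosomes that stall. Aminoacyl-tRNA synthetases load each tRNA with its amino acid, in the cytosol and in the mitochondrion. Limited food is known to lower protein synthesis in worms, and lower activity of several of these factors is known to lengthen worm life.

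The 64 genes comprised 5 eIF4E genes, 2 genes for eIF4G and eIF4A, 11 eIF3 subunits, 5 other initiation factors, 2 eIF5A genes, 6 elongation factors, 20 cytosolic synthetases, 12 mitochondrial synthetases and *cars-2*. The label held for 63 of them, which are annotated as protein coding, whereas *cars-2* is annotated as a pseudogene and was described apart. The compartment of each synthetase was assigned from textbook knowledge, as the annotation used here gives no product names. Genes whose product may serve both compartments were not set apart. Libraries held 9203611 to 12012750 reads counted to genes, and a member had between 70 and 111924 reads in a library, with a median of 1518. Levels are given as CPM, the counts scaled to a common library size after adjustment by TMM (trimmed mean of M values). Differences were tested with edgeR's quasi-likelihood test in a single fit of the 9 libraries, and a gene is said to have risen, fallen or been called at a Benjamini-Hochberg adjusted p under 0.05 over all genes tested. A log2 fold change over 1 or under −1 was the added threshold for an upregulated or downregulated gene. It is not given in the sources used here whether replicate libraries stem from different cultures, so p measures the spread between these libraries, which may be technical. In whole worms, fewer cells of a type and less RNA per cell cannot be told apart. The replicate spread was small, with a median coefficient of variation over the 64 genes of 3.06% on AL, 4.33% on DR1 and 2.99% on DR0.

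On DR1 most of these transcripts were below AL, by modest amounts, whereas on DR0 they divided between rises and falls. Against AL, 13 of 64 rose and 32 fell on DR1, beside 28.5% and 31.6% of all genes tested. On DR0, 23 rose and 28 fell, beside 29.6% and 31% of all genes. The median log2 fold change of the 64 was −0.15 on DR1 and −0.11 on DR0, where that of all genes was 0.03 in both. Log2 fold changes of the 64 lay between −0.96 and 0.76 on DR1 and between −1.28 and 0.71 on DR0. On DR1 0 were upregulated and 0 downregulated, beside 10.6% and 8.62% of all genes, while DR0 had 0 upregulated, beside 11.3%, and 2 downregulated (*rars-2* and *eif-2D*), beside 8.16%. Between the 2 restricted diets, 29 were higher and 16 lower on DR0 than on DR1, beside 21.2% and 17.8% of all genes. The differences ran from −0.75 to 1.02. Past the added threshold, 1 (*eef-1B.1*) was higher, beside 1.44%, and 0 were lower, beside 1.03%. These shares of all genes are also the background for the counts of families and marker lists below. DR1 and DR0 share their AL libraries, so the values against AL are given side by side and were not compared with each other as evidence.

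The direction of the whole group depended on how libraries were scaled. TMM factors were 0.909 to 0.914 on AL, 1.16 in the DR1 libraries and 0.944 to 0.949 on DR0. With libraries scaled by total counts only, the median of all genes on DR1 against AL moved from 0.03 to 0.38, and 35 of the 64 members were higher and 15 lower. Relative to the median of all genes, the members' median was −0.18 under both scalings. With quantile normalization that difference was −0.002, and 30 members were higher and 17 lower on DR1. The DR0 counts against AL were less dependent on the scaling, with 27 higher and 23 lower by total counts. Ratios of reads within a library do not depend on the scaling and are given for the families below.

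**Figure D1:**
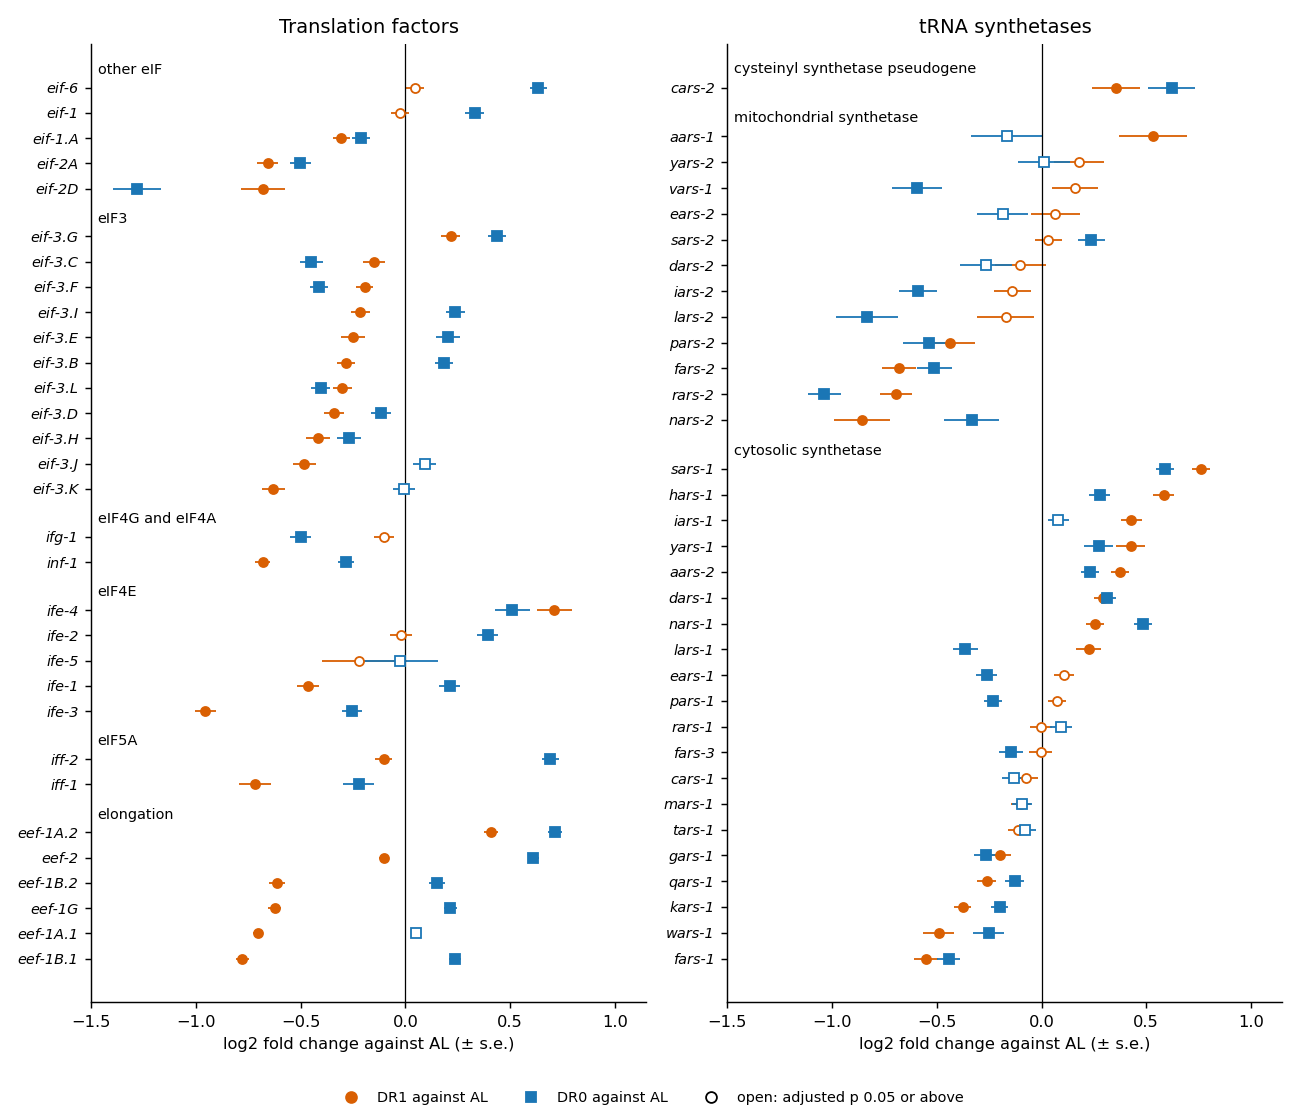
Log2 fold change against AL (x axis, with the standard error as a bar) of the 64 genes, by role from bottom to top, with DR1 as circles and DR0 as squares; open symbols had an adjusted p of 0.05 or above. Of the 31 translation factors, 23 fell on DR1 and 15 rose on DR0, while the 33 synthetase genes had 10 rises and 9 falls on DR1 and 8 rises and 16 falls on DR0.

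The 6 elongation factors made up 1.90% of all counted reads on AL, 1.83% on DR1 and 2.43% on DR0. On DR1 5 of 6 fell against AL and 1 rose, with a median log2 fold change of −0.62. On DR0 5 of 6 rose and 0 fell, with a median of 0.23, and all 6 were higher on DR0 than on DR1, with a median of 0.76. Under total-count scaling 4 were lower and 2 higher on DR1 than on AL (median −0.27), with *eef-2* turned to a rise of 0.25. That scaling also left *eef-1A.2* without a call between DR0 and DR1 (0.01, adjusted p = 0.78). Under quantile normalization 2 were lower and 2 higher on DR1 than on AL (median −0.03), and 4 were higher and 2 lower on DR0 than on DR1 (median 0.18). That method sets values by rank, so it can hide differences among the most abundant genes.

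The main eEF1A gene, *eef-1A.1* (WBGene00001168, chromosome III from 6970026 to 6971712, WBcel235), encodes the protein that brings aminoacyl-tRNA to the ribosome. Its libraries read 10275, 10157 and 10243 CPM on AL, 6333, 5974 and 6531 on DR1, and 10524, 10708 and 10548 on DR0. All DR1 libraries lay far below both other conditions, and the DR0 libraries were all slightly above those of AL. The log2 fold change was −0.70 (s.e. 0.024, adjusted p = 1.03e-17) on DR1 and 0.05 (s.e. 0.024, adjusted p = 0.0693) on DR0 against AL. Quantile normalization left no difference between DR1 and AL, but it gives genes of equal rank the same value in every library. It therefore cannot show a change in a gene that keeps its rank, and says nothing on the DR1 fall. The DR0 difference was not called in the main fit. It was called as a rise by limma-voom (0.05, adjusted p = 0.0123) and by total counts (0.11, adjusted p = 0.000461). So it was with a mean CPM of at least 5 (0.12), in a fit of only the compared conditions (0.07) and with the exon length trend removed (0.05). It also passed without DR1 replicate 2 (adjusted p = 0.00542) or without DR1 replicate 3 (adjusted p = 0.0233). By quantile normalization it turned to −0.13. The close copy *eef-1A.2* (WBGene00001169, chromosome X from 7823654 to 7825769) encodes a protein of the same length, 463 residues. It read 2124, 2021 and 2066 CPM on AL, 2751, 2581 and 2909 on DR1, and 3327, 3481 and 3374 on DR0. In contrast to *eef-1A.1* it rose on DR1 (log2 fold change 0.41, s.e. 0.034, adjusted p = 2.85e-10) and rose on DR0 (0.71, s.e. 0.034, adjusted p = 1.01e-14), and the 3 conditions did not overlap in CPM. The difference of *eef-1A.2* between DR0 and DR1 depended on the scaling. It was 0.31 in the main fit, 0.01 by total counts (adjusted p = 0.78, not called) and −0.38 by quantiles. Reads that match both genes could be lost or assigned to either in counting, so each level is uncertain.

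The eEF1B complex, which exchanges GDP for GTP on eEF1A, followed *eef-1A.1* on DR1. The subunit gene *eef-1B.1* (WBGene00018846, chromosome III from 7972382 to 7973386) read 1585, 1605 and 1554 CPM on AL, 926, 926 and 910 on DR1, and 1923, 1848 and 1820 on DR0. The gamma subunit gene *eef-1G* read 1797, 1801 and 1787 CPM on AL, 1178, 1112 and 1204 on DR1, and 2099, 2101 and 2049 on DR0. The other exchange subunit, *eef-1B.2*, read 609, 603 and 626 CPM on AL, 390, 405 and 405 on DR1, and 703, 669 and 670 on DR0. For each of these genes the DR1 libraries were the lowest and the DR0 libraries the highest, with no overlap between conditions. Against AL, *eef-1B.1* changed by −0.78 on the log2 scale on DR1 (s.e. 0.031, adjusted p = 1.55e-16) and by 0.24 on DR0 (s.e. 0.030, adjusted p = 4.12e-07). Between DR0 and DR1 its difference was 1.02 (adjusted p = 6.15e-18), which fell below the added threshold at 0.996 without DR0 replicate 1, 0.99 with a mean CPM of at least 5, 0.85 with the exon length trend removed, 0.72 by total counts and 0.38 by quantiles. The changes were −0.62 and 0.21 for *eef-1G* and −0.61 and 0.15 for *eef-1B.2*, on DR1 and DR0, all called. The DR1 fall of *eef-1G* was lost under quantile normalization (−0.053, adjusted p = 0.201).

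The translocase gene *eef-2* (WBGene00001167, chromosome I from 9163531 to 9166952) was near AL on DR1 and well above it on DR0. It read 4576, 4602 and 4680 CPM on AL, 4344, 4107 and 4459 on DR1, and 6999, 7041 and 7127 on DR0. The DR0 libraries stood apart from all others, while those of DR1 were all below AL by a small margin. The log2 fold change was −0.10 on DR1 (s.e. 0.025, adjusted p = 0.00135) and 0.61 on DR0 (s.e. 0.026, adjusted p = 7.47e-16). The DR1 fall turned to a difference of 0.00067 when only genes with a mean of 5 CPM or more were fitted. The kinase gene *efk-1*, whose product is known to inhibit eEF2, rose on DR1 by 0.57 (adjusted p = 1.56e-08) and on DR0 by 0.15 (adjusted p = 0.0458).

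**Figure D2:**
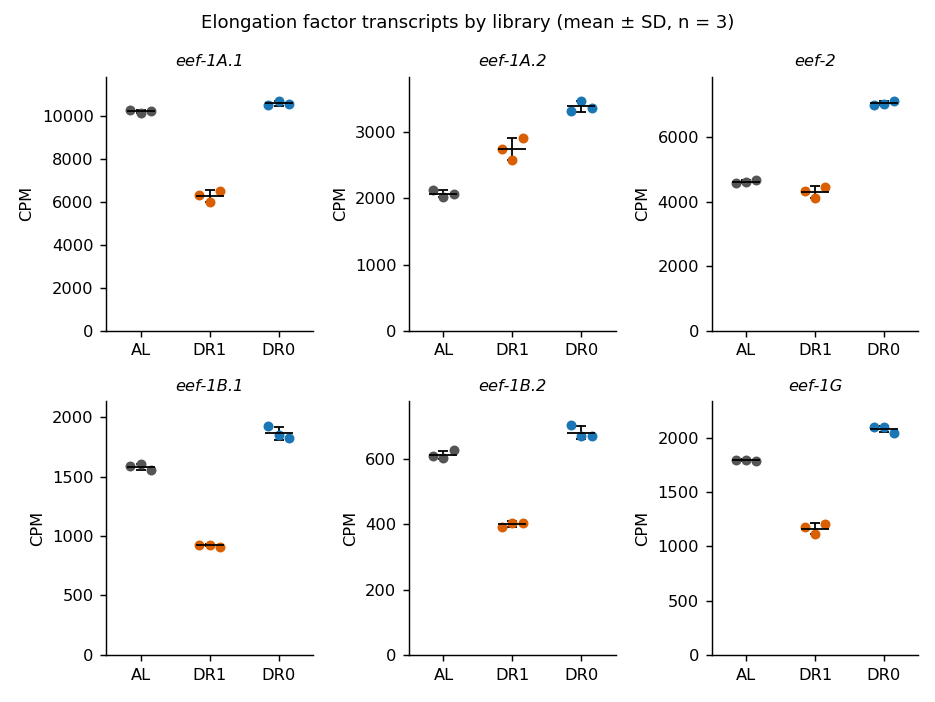
CPM (y axis, from 0) of the 6 elongation factor genes in each library of AL, DR1 and DR0, with the mean and SD of 3 libraries as a bar with whiskers. Except for *eef-1A.2*, each gene has its lowest libraries on DR1, and all 6 have higher means on DR0 than on DR1.

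Markers of other tissues also changed between the diets. Of 10 body wall and pharyngeal muscle markers, 1 rose and 7 fell on DR1 and 4 rose and 4 fell on DR0, and 8 were higher on DR0 than on DR1. Their summed level was 1878 to 1931 CPM on AL, 823 to 886 on DR1 and 1788 to 1816 on DR0. All 20 germ line and oocyte markers fell in both diets, 15 of them past the added threshold on DR1 and 3 on DR0. Their summed level was 5906 to 6065 CPM on AL, 2019 to 2119 on DR1 and 3742 to 3859 on DR0. Of 5 tested hypodermis and seam markers 1 rose and 4 fell in each diet, with a summed level of all 8 of 1126 to 1180 CPM on AL, 104 to 112 on DR1 and 129 to 136 on DR0. Most of that sum was *col-19*, an adult cuticle collagen (1040 CPM on AL, 33.4 on DR1 and 37.7 on DR0), and *dpy-7* was the marker that rose (0.44 on DR1 and 0.88 on DR0). Of 10 intestine markers 3 rose and 6 fell on DR1 and 4 rose and 5 fell on DR0, and of 10 neuron markers 3 rose and 1 fell on DR1 and 6 rose and 1 fell on DR0. Beside these counts, 28.5% of all genes rose and 31.6% fell on DR1, and 29.6% rose and 31% fell on DR0. The part of these marker lists in the changes of the translation genes was not tested.

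Within a library, *eef-1A.2* took a larger share of eEF1A reads under restriction. Of the reads of both genes it held 17.1%, 16.6% and 16.8% on AL, 30.3%, 30.2% and 30.8% on DR1, and 24.0%, 24.5% and 24.2% on DR0. The conditions did not overlap, and the mean was 16.8% ± 0.269 on AL, 30.4% ± 0.345 on DR1 and 24.3% ± 0.256 on DR0 (SD, n = 3). Each of the differences between conditions had p = 0.1 in a two-sided exact permutation test, the smallest that 3 libraries against 3 allow. Over the 21 such differences of read shares in the eEF1A, eIF5A and eIF4E families, the adjusted p was 0.124 at that value, so the design cannot take a share past 0.05. The shares were chosen after the values of the genes had been seen.

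The eIF5A genes, *iff-1* and *iff-2*, also parted from each other. The gene *iff-1* (WBGene00002064, chromosome III from 9745862 to 9747193) is known to be required in the germ line, and *iff-2* (WBGene00002065, chromosome II from 8559375 to 8561367) is the somatic form. *iff-1* read 762, 720 and 770 CPM on AL, 489, 361 and 517 on DR1, and 659, 624 and 646 on DR0. *iff-2* read 519, 537 and 566 CPM on AL, 522, 477 and 510 on DR1, and 877, 871 and 869 on DR0. Thus *iff-1* was highest on AL with no overlap, and DR1 replicate 2 was well below its partners, whereas *iff-2* overlapped between AL and DR1 and stood clear of both on DR0. *iff-1* fell on DR1 (−0.72, s.e. 0.076, adjusted p = 1.75e-08) and on DR0 (−0.22, s.e. 0.076, adjusted p = 0.0136). By quantiles the DR1 value of *iff-1* was −0.18 (adjusted p = 0.0823) and its DR0 value −0.09 (adjusted p = 0.423), neither called. Its DR0 fall was also lost by DESeq2 (adjusted p = 0.119), by total counts (adjusted p = 0.0555) and with a mean CPM of at least 5 (adjusted p = 0.0969). It was further lost without AL replicate 3 (adjusted p = 0.0545) or DR0 replicate 2 (adjusted p = 0.058). *iff-2* rose on DR0 (0.69, s.e. 0.041, adjusted p = 5.78e-13), and its small fall on DR1 (−0.10, adjusted p = 0.0305) was lost without AL replicate 3 (adjusted p = 0.184) or DR1 replicate 2 (adjusted p = 0.153). Both scaling alternatives turned the *iff-2* difference on DR1 to a rise, of 0.24 by total counts and 0.45 by quantiles. Its share of the eIF5A reads, which no scaling moves, was 40.5%, 42.7% and 42.4% on AL, 51.6%, 56.9% and 49.7% on DR1, and 57.1%, 58.2% and 57.4% on DR0. Some 138 bases of the exons of *iff-1* overlap T05G5.17 on the other strand, and counting without strand cannot tell those reads apart.

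The eIF4E family, which binds the mRNA cap, held members that rose and members that fell. Of the 5 genes 1 rose and 2 fell on DR1, and 3 rose and 1 fell on DR0. IFE-1 and IFE-3 are known as germline forms, and IFE-2 and IFE-4 as somatic forms. *ife-3* (WBGene00002061, chromosome V from 6584 to 7828) read 172, 169 and 175 CPM on AL, 89.1, 92.7 and 84.7 on DR1, and 141, 142.03 and 149 on DR0. *ife-1* read 219, 224 and 218 CPM on AL, 157, 171 and 152 on DR1, and 269, 238 and 258 on DR0. *ife-3* was thus highest on AL, and *ife-1* on DR0, and both were lowest on DR1 with no overlap between conditions. *ife-3* fell by 0.96 on the log2 scale on DR1 (s.e. 0.050, adjusted p = 4.53e-14), the largest fall of the 64 genes in that diet in edgeR's fit, and by 0.26 on DR0 (s.e. 0.049, adjusted p = 9.14e-05). *ife-1* changed by −0.46 on DR1 (s.e. 0.052, adjusted p = 5.3e-08) and by 0.21 on DR0 (s.e. 0.052, adjusted p = 0.00126), although 246 of its 995 exonic bases overlap *dro-1* on the same strand. The DR1 fall of *ife-1* was not called by total counts (−0.12, adjusted p = 0.0518), nor its DR0 rise with the exon length trend removed (0.10, adjusted p = 0.0558).

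Neither somatic form was called lower in a restricted diet. *ife-4* (WBGene00002062, chromosome X from 1104212 to 1106251) read 30.1, 27.5 and 33.4 CPM on AL, 48.6, 52.1 and 48.8 on DR1, and 43.6, 42.2 and 44.3 on DR0. *ife-2* read 129, 136 and 125 CPM on AL, 126, 135 and 123 on DR1, and 176, 170 and 166 on DR0. The AL libraries of *ife-4* were below all restricted ones, and for *ife-2* only the DR0 libraries stood apart. *ife-4* rose on DR1 (0.71, s.e. 0.083, adjusted p = 8.7e-08) and on DR0 (0.51, s.e. 0.085, adjusted p = 1.75e-05). *ife-2* rose on DR0 (0.39, s.e. 0.052, adjusted p = 6.58e-07), and its value on DR1 was −0.02 (adjusted p = 0.739). The rarest member, *ife-5*, had a mean of 10.5 ± 1.88 CPM on AL, 9.02 ± 0.940 on DR1 and 10.3 ± 2.12 on DR0 (SD, n = 3), with overlapping libraries and no call.

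**Figure D3:**
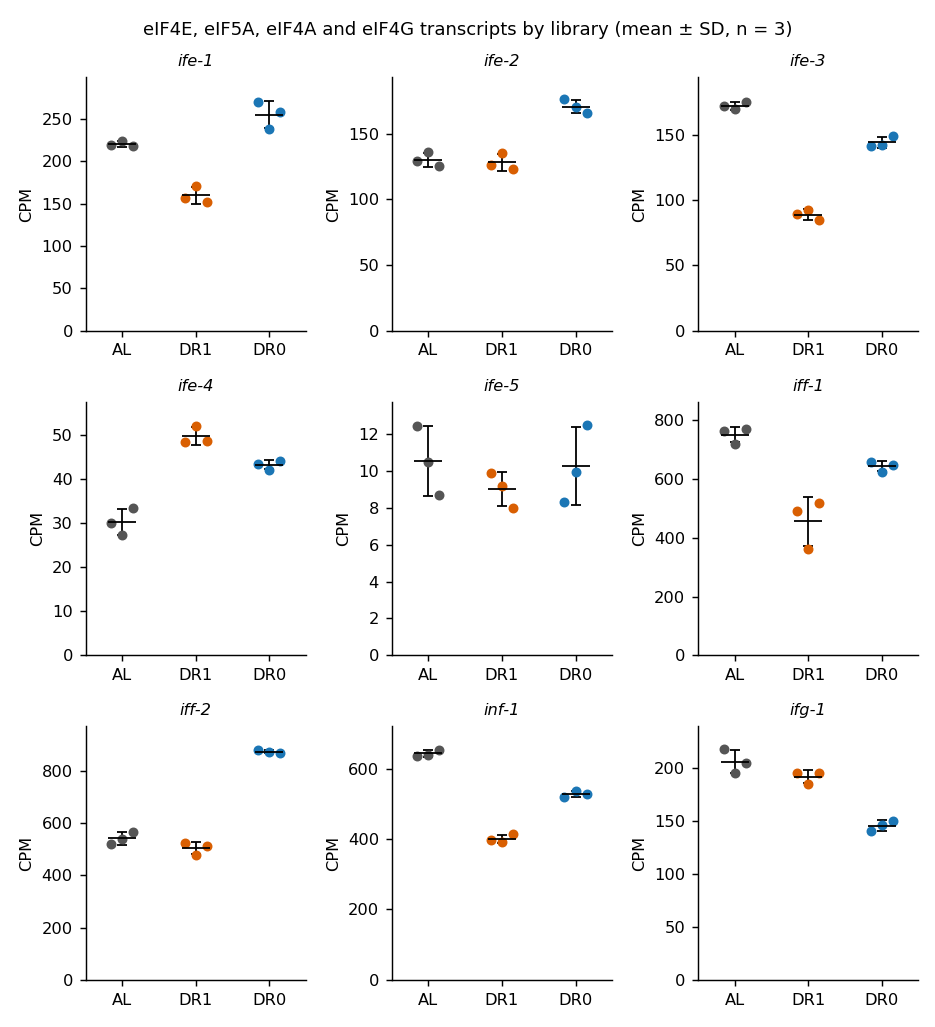
CPM (y axis, from 0) of the 5 eIF4E genes, the eIF5A genes *iff-1* and *iff-2*, the eIF4A gene *inf-1* and the eIF4G gene *ifg-1* in each library, with the mean and SD of 3 libraries. *ife-3*, *iff-1* and *inf-1* are highest on AL and lowest on DR1, while *ife-4* is lowest on AL and *iff-2* is highest on DR0.

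Within the eIF4E reads the same contrast appeared without any scaling. *ife-3* held 30.6% ± 0.715 of them on AL, 20.4% ± 0.281 on DR1 and 23.1% ± 0.868 on DR0 (SD, n = 3), with no overlap. *ife-4* held 5.38% ± 0.563 on AL, 11.4% ± 0.237 on DR1 and 6.96% ± 0.116 on DR0, also with no overlap. *ife-2* held 23.1% on AL, 29.4% on DR1 and 27.4% on DR0. The *ife-1* share was 38.9% to 39.5% on AL, 36.4% to 37.1% on DR1 and 39.5% to 42.2% on DR0. Its DR1 libraries lay below all others, while AL and DR0 overlapped. Beside these shares, the summed germ line and oocyte markers given above were lowest on DR1 and highest on AL, which is also the order of *ife-3*. The order is not particular to them, as the muscle, hypodermis and intestine sums shared it. The intestine means were 5695 CPM on AL, 3197 on DR1 and 4640 on DR0. The neuron sum and *ife-1* had another order, with DR0 highest. A link between markers and eIF4E genes was not tested. The sperm markers, where IFE-1 is also known to act, were at or near 0, with a summed level of 9.22 to 14.0 CPM on AL, 6.86 to 8.49 on DR1 and 4.97 to 6.46 on DR0.

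Among the partners of eIF4E, *inf-1* fell in both diets and *ifg-1* fell on DR0. The eIF4A helicase gene *inf-1* (WBGene00002083, chromosome III from 6930134 to 6931953) read 636, 640 and 654 CPM on AL, 398, 392 and 413 on DR1, and 520, 538 and 527 on DR0. The eIF4G scaffold gene *ifg-1* read 217, 195 and 204 CPM on AL, 195, 184 and 195 on DR1, and 140, 146 and 150 on DR0. The order of the restricted diets was opposite for these genes, since *inf-1* was lowest on DR1 and *ifg-1* was lowest on DR0. *inf-1* fell by 0.68 on the log2 scale on DR1 (s.e. 0.037, adjusted p = 1.05e-13) and by 0.28 on DR0 (s.e. 0.037, adjusted p = 5.69e-07). *ifg-1* fell by 0.50 on DR0 (s.e. 0.050, adjusted p = 9.22e-09), and on DR1 its value of −0.10 (adjusted p = 0.0755) was not called in the main fit. It was called as a fall on DR1 without AL replicate 2 (−0.15, adjusted p = 0.026) and with the exon length trend removed (−0.28, adjusted p = 2.31e-06). Total-count scaling turned the DR1 value of *ifg-1* to a called rise of 0.24 (adjusted p = 0.000143), and quantile normalization to 0.19 (adjusted p = 0.00117).

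The subunits of eIF3, the large complex that holds the small ribosomal subunit ready for an mRNA, fell together on DR1 but divided on DR0. Of 11 subunits 10 fell and 1 rose on DR1, with a median log2 fold change of −0.28, and 5 fell and 4 rose on DR0, with a median of −0.01. Total-count scaling gave 4 higher and 2 lower on DR1 (median 0.06), and quantile normalization 2 higher and 4 lower (median −0.04). The exception on DR1 was *eif-3.G*, a subunit that binds RNA. It read 165, 169 and 161 CPM on AL, 188, 194 and 193 on DR1, and 221, 224 and 224 on DR0. These libraries ascended from AL to DR0 without overlap in CPM, with a log2 fold change of 0.22 on DR1 (s.e. 0.044, adjusted p = 0.000183) and 0.44 on DR0 (s.e. 0.044, adjusted p = 9.33e-09). The step from DR1 to DR0 depended on the scaling. It was −0.07 by total counts (adjusted p = 0.187) and −0.01 by quantiles (adjusted p = 0.86), neither called.

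The small subunit *eif-3.K* and the loosely bound *eif-3.J* had the largest falls of eIF3 on DR1. *eif-3.K* read 113, 109 and 114.9 CPM on AL, 72.2, 69.8 and 75.5 on DR1, and 113, 113 and 109 on DR0. *eif-3.J* read 108, 102 and 103 CPM on AL, 72.2, 72.5 and 79.2 on DR1, and 112, 110 and 112 on DR0. In both genes the DR1 libraries lay below all others. The falls on DR1 were −0.63 (adjusted p = 5.16e-10) and −0.48 (adjusted p = 7.2e-08), and the values on DR0 were −0.01 (adjusted p = 0.9) and 0.09 (adjusted p = 0.149). The core subunit *eif-3.C* and *eif-3.F* had the opposite order and were lowest on DR0.

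*eif-3.F* read 275, 275 and 271 CPM on AL, 243, 232 and 241 on DR1, and 208, 204 and 205 on DR0. *eif-3.C* read 170, 155 and 173 CPM on AL, 158, 146 and 145 on DR1, and 121, 122 and 121 on DR0. The DR0 libraries were the lowest for both, and AL and DR1 overlapped for *eif-3.C* but not for *eif-3.F*. On DR0 they fell by 0.41 (adjusted p = 1.12e-08) and 0.45 (adjusted p = 1.2e-07) on the log2 scale. The smaller DR1 fall of *eif-3.C* (−0.15, adjusted p = 0.0146) was lost without AL replicate 3 (adjusted p = 0.0876) or DR1 replicate 3 (adjusted p = 0.0551), and with a mean CPM of at least 5 (adjusted p = 0.402). The eIF3 core subunits that carry other symbols were looked up after the symbols of the table had been seen. Of these *egl-45*, the largest subunit, changed by −0.15 on DR1 and −0.36 on DR0, and *cif-1* by −0.36 and 0.05, of which the last was not called.

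Among the other initiation factors *eif-2D* and *eif-6* moved in opposite directions on DR0. *eif-2D* (WBGene00016113, chromosome II from 5691721 to 5693939), known in mammals to deliver tRNA to the ribosome without eIF2, read 30.8, 29.3 and 30.8 CPM on AL, 19.6, 19.7 and 17.6 on DR1, and 11.8, 11.9 and 13.6 on DR0. *eif-6* (WBGene00001234), which keeps the large ribosomal subunit from joining the small one too soon, read 224, 225 and 217 CPM on AL, 237, 224 and 226 on DR1, and 344, 342 and 349 on DR0. The conditions descended from AL to DR0 without overlap for *eif-2D*, whereas for *eif-6* only DR0 stood apart. *eif-2D* had log2 fold changes of −0.68 on DR1 (s.e. 0.106, adjusted p = 6.46e-06) and −1.28 on DR0 (s.e. 0.114, adjusted p = 1.09e-09), the latter being the largest fall of the 64 genes against AL in edgeR's fit. *eif-6* rose by 0.63 on DR0 (s.e. 0.042, adjusted p = 5.7e-12), with a DR1 value of 0.04 (adjusted p = 0.371) that was called by total counts (0.39), by quantiles (0.37) and with a mean CPM of at least 5 (0.15). The scanning factor *eif-1* rose on DR0 (0.33, adjusted p = 8.26e-07) with a value of −0.03 on DR1 (adjusted p = 0.619), and its partner *eif-1.A* fell in both diets (−0.31 and −0.21). *eif-2A*, which is no subunit of eIF2, fell by 0.66 on DR1 and by 0.50 on DR0.

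The subunits of eIF2, which holds the initiator tRNA, and of its exchange factor eIF2B carry Greek letters and fall outside the symbol rule. Of these 8 genes 5 fell on DR1, where the highest value was 0.07, and 1 rose and 6 fell on DR0. The largest change was that of *eif-2alpha*, the subunit that stress kinases phosphorylate, from 353 CPM on AL to 191 on DR1 and 263 on DR0, with log2 fold changes of −0.88 (adjusted p = 8.82e-14) and −0.42 (adjusted p = 5.62e-08). The eIF2alpha kinase gene *pek-1*, known as the sensor of the endoplasmic reticulum, stood at 30.96 CPM on AL, 60.1 on DR1 and 36.9 on DR0. It rose by 0.96 on DR1 (adjusted p = 8.76e-09) and by 0.26 on DR0 (adjusted p = 0.0352). The other kinase gene, *gcn-2*, had values of 0.18 (adjusted p = 0.155) and −0.29 (adjusted p = 0.0307).

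The 20 cytosolic synthetases divided between rises and falls on DR1 in the main fit. In that diet 8 rose, 5 fell and 7 were not called, with a median log2 fold change of 0.04, and on DR0 6 rose, 9 fell and 5 were not called, with a median of −0.11. Total-count scaling gave 16 higher and 1 lower on DR1, and 18 lower and 0 higher on DR0 than on DR1. The summed level of the 20 genes was 3344 to 3400 CPM on AL, 3619 to 3723 on DR1 and 3446 to 3493 on DR0. The largest rise was that of *sars-1* (WBGene00005663, chromosome IV from 10003726 to 10005578), the seryl-tRNA synthetase. It read 214, 221 and 222 CPM on AL, 368, 356 and 388 on DR1, and 337, 327 and 324 on DR0. All restricted libraries lay above AL, with changes of 0.76 on DR1 (s.e. 0.043, adjusted p = 2.24e-13) and 0.59 on DR0 (s.e. 0.043, adjusted p = 3.89e-11). The histidyl enzyme gene *hars-1* read 136, 141 and 127 CPM on AL, 204, 199 and 201 on DR1, and 161, 155 and 172 on DR0. The asparaginyl enzyme gene *nars-1* read 192, 198 and 187 CPM on AL, 232, 229 and 227 on DR1, and 262, 275 and 270 on DR0. The conditions were separate for both genes in CPM, but the order of DR1 and DR0 was opposite. For *nars-1* that order depended on the scaling. Its difference between DR0 and DR1 was 0.23 in the main fit. It was −0.06 by total counts (adjusted p = 0.25) and −0.05 by quantiles (adjusted p = 0.301), neither called. *hars-1* rose by 0.58 on DR1 and 0.28 on DR0, and *nars-1* by 0.25 and 0.48.

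Other cytosolic synthetases fell in both diets or changed sides. The phenylalanyl enzyme has subunits of 2 kinds, and their genes *fars-1* and *fars-3* differed. *fars-1* read 118, 117 and 128 CPM on AL, 79.5, 83.1 and 85.1 on DR1, and 90.5, 91.4 and 85.2 on DR0. It fell in both diets without overlap with AL (−0.55, adjusted p = 9.49e-09, and −0.44, adjusted p = 4.19e-07). *fars-3*, at 97.8 CPM on AL, 97.4 on DR1 and 88.2 on DR0, had values of −0.005 (adjusted p = 0.948) and −0.15 (adjusted p = 0.032). The leucyl enzyme gene *lars-1* read 195, 186 and 206 CPM on AL, 213, 222 and 250 on DR1, and 164, 145 and 147 on DR0. It was above AL in every DR1 library and below AL in every DR0 library, with changes of 0.22 (s.e. 0.058, adjusted p = 0.00199) and −0.36 (s.e. 0.060, adjusted p = 1.56e-05) and a direct difference between DR0 and DR1 of −0.59 (adjusted p = 1.98e-08). The DR1 rise of *lars-1* was lost with the exon length trend removed (0.09, adjusted p = 0.127). The tryptophanyl enzyme gene *wars-1* fell on DR1, from 76.1 to 54.2 CPM (−0.49, adjusted p = 4.63e-06), a change that total-count scaling did not call (−0.14).

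The mitochondrial synthetases had more falls than rises in both diets in the main fit. Of 12 genes 1 rose and 4 fell on DR1, beside 28.5% and 31.6% of all genes, with a median log2 fold change of −0.12. The DR1 falls were thus near the share of all genes. The direction of the summed reads on DR1 also depended on the scaling. The sum was 383 CPM on AL, 327 on DR1 and 293 on DR0, but 0.0348%, 0.0378% and 0.0277% of all counted reads. On DR0 1 rose and 7 fell, beside 29.6% and 31% of all genes, with a median of −0.42. The falls on DR0 were 6 to 7 when a library was left out. The arginyl enzyme gene *rars-2* (WBGene00004680, chromosome II from 6125559 to 6127942) read 67.6, 68.0 and 69.8 CPM on AL, 44.1, 38.9 and 43.8 on DR1, and 36.2, 33.3 and 30.9 on DR0. The conditions descended from AL to DR0 without overlap. The fall was 0.69 on DR1 (s.e. 0.075, adjusted p = 2.58e-08) and 1.04 on DR0 (s.e. 0.079, adjusted p = 6.93e-11) on the log2 scale. The DR0 value was inside the added threshold without DR0 replicate 3 (−0.98), by total counts (−0.98) and by quantiles (−0.84). It was also inside with a mean CPM of at least 5 (−0.96) and with the exon length trend removed (−0.998). The leucyl enzyme gene *lars-2* read 20.6, 16.4 and 17.4 CPM on AL, 16.2, 18.5 and 13.6 on DR1, and 10.5, 10.5 and 9.53 on DR0. Its DR0 libraries were the lowest and those of AL and DR1 overlapped (−0.83 on DR0, adjusted p = 3.61e-05, and −0.17 on DR1, adjusted p = 0.284). The asparaginyl enzyme gene *nars-2* read 17.2, 18.0 and 18.2 CPM on AL, 10.9, 9.57 and 9.15 on DR1, and 12.6, 14.8 and 14.99 on DR0. It fell by 0.86 on DR1 (adjusted p = 7.18e-06). Its DR0 fall (−0.33, adjusted p = 0.033) was lost by DESeq2, by total counts, by quantiles, without the filter and with a mean CPM of at least 5. The fall was also lost without AL replicate 2, AL replicate 3 or DR0 replicate 1. Rises were seen for *aars-1*, the alanyl enzyme, on DR1 (0.53, adjusted p = 0.00657) and for *sars-2*, the seryl enzyme, on DR0 (0.24, adjusted p = 0.00343).

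The pseudogene *cars-2* (chromosome I from 2629685 to 2632320) lies beside *cars-1* (from 2623099 to 2628577), the active cysteinyl synthetase gene. *cars-2* read 17.8, 16.2 and 17.5 CPM on AL, 23.4, 19.7 and 22.8 on DR1, and 25.3, 24.98 and 28.9 on DR0, with no overlap between the conditions. It rose by 0.36 on DR1 (adjusted p = 0.00943) and by 0.62 on DR0 (adjusted p = 5.45e-05). The difference between DR0 and DR1 was not called (0.27, adjusted p = 0.0553). *cars-1*, at 138 CPM on AL, 131 on DR1 and 126 on DR0, was not called in either diet (−0.08 and −0.13). Whether reads of the active gene reach the pseudogene in counting was not tested.

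Read ratios between the families, which are free of scaling, were described without a test. For every read of the 20 cytosolic synthetases there were 6.22, 6.22 and 6.16 reads of the 6 elongation factors on AL, 4.33, 4.17 and 4.41 on DR1, and 7.32, 7.50 and 7.36 on DR0. The conditions were fully separate, with DR1 lowest and DR0 highest. For every 100 reads of the cytosolic synthetases, eIF3 had 57.7 ± 0.707 on AL, 44.8 ± 0.476 on DR1 and 55.1 ± 0.352 on DR0 (SD, n = 3). The mitochondrial synthetases had 11.4 ± 0.249 on AL, 8.91 ± 0.0933 on DR1 and 8.45 ± 0.0640 on DR0, so that both diets lay below AL.

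**Figure D4:**
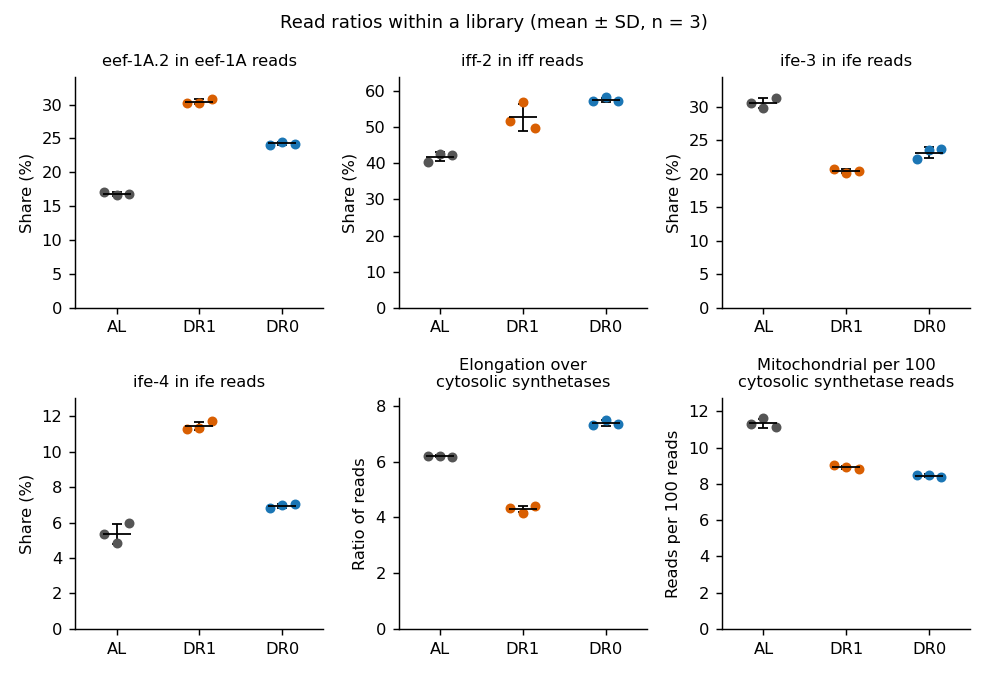
Ratios of reads within each library (y axes, from 0) for AL, DR1 and DR0, with the mean and SD of 3 libraries: shares of *eef-1A.2*, *iff-2*, *ife-3* and *ife-4* in the reads of their families in percent, reads of the elongation factors over those of the cytosolic synthetases, and reads of the mitochondrial synthetases per 100 of the cytosolic ones. In all panels the AL libraries are separate from those of DR1 and DR0, and the elongation ratio is lowest on DR1 and highest on DR0.

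The difference between DR0 and DR1 ran with the length of the transcripts. Across the 64 genes Pearson's r between log2 exon length and the log2 fold change was −0.59 for DR0 against DR1, −0.32 for DR0 against AL and 0.28 for DR1 against AL. Across all 14332 genes tested the same values were −0.35, −0.12 and 0.03. Without the elongation factors, r for DR0 against DR1 was −0.66 (n = 58), and within groups it was −0.84 for the mitochondrial synthetases (n = 12), −0.51 for eIF3 (n = 11), −0.47 for the cytosolic synthetases (n = 20) and −0.35 for all translation factors (n = 31). Genes of a library are not independent, share its depth and RNA, and differ in base composition, so these are descriptions. When a trend of each library on exon length was removed, an alternative chosen after seeing the data, 33 members were higher and 15 lower on DR0 than on DR1. All 6 elongation factors were still higher there (median 0.85). The cytosolic synthetases went from 4 higher and 7 lower on DR0 than on DR1 (median −0.06) to 8 higher and 6 lower (median 0.07). Whether length itself or something that goes with it sets these differences was not tested.

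**Figure D5:**
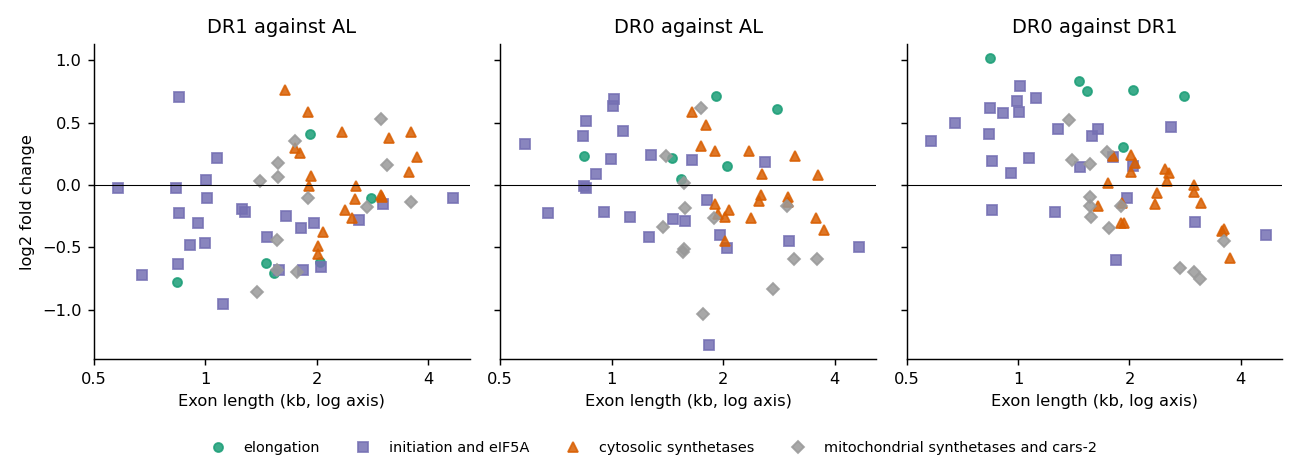
Log2 fold change (y axis) of the 64 genes against exon length in kb (x axis, log scale) for DR1 against AL, DR0 against AL and DR0 against DR1, with symbols by role. On DR0 against DR1 the longer genes lie lower (r = −0.59), while the 6 elongation factors all lie above 0.

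Ribosomal protein genes form the other large part of the translation machinery, and they were not tested against the elongation factors. Of 81 cytosolic ribosomal protein genes tested, 1 rose and 73 fell on DR1 (median −0.61), 56 rose and 6 fell on DR0 (median 0.18), and 74 were higher on DR0 than on DR1 (median 0.82). Of 71 mitochondrial ones, 5 rose and 42 fell on DR1, and 14 rose and 33 fell on DR0. *rack-1*, a protein of the small subunit, went from 2915 CPM on AL to 1800 on DR1 and 3543 on DR0 (log2 fold changes −0.70 and 0.28, both called). The release factor genes had another pattern and fell in both diets, *erfa-1* by 0.48 and 0.69 and *erfa-3* by 0.54 and 0.55 on the log2 scale, on DR1 and DR0. Of the 9 tested translation factors with other symbols, which include these and *rack-1*, 6 fell on DR1, where the highest value was 0.09, and 1 rose and 6 fell on DR0.

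Of 20 translation regulators found, 4 rose and 10 fell on DR1 and 3 rose and 13 fell on DR0. The 4 rises on DR1 were *pek-1*, *efk-1*, the poly(A)-binding protein gene *pab-2* (0.52) and *let-363* (0.32), which encodes the TOR kinase. *pab-2* and *let-363* had values of 0.11 (adjusted p = 0.0513) and −0.11 (adjusted p = 0.212) on DR0. Falls were largest for regulators of stored mRNA in the germ line, *cgh-1* (−1.37 on DR1 and −0.81 on DR0) and *ifet-1*, an eIF4E-binding repressor (−0.67 in both). The S6 kinase gene *rsks-1* was not called, at 149 CPM on AL, 154 on DR1 and 159 on DR0 (0.05, adjusted p = 0.448, and 0.09, adjusted p = 0.164).

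Per kilobase of exon, levels of the members spanned a wide range and the top of the order was kept by elongation. On AL *eef-1A.1* was at 6653 CPM per kb, followed by *eef-1B.1* at 1882, *eef-2* at 1650, *eef-1G* at 1230, *iff-1* at 1114 and *eef-1A.2* at 1080. On DR0 the order after *eef-1A.1* (6892) was *eef-2* (2520), *eef-1B.1* (2219) and *eef-1A.2* (1771) CPM per kb. On DR1 *eef-1A.1* (4086) was followed by *eef-2* (1537) and *eef-1A.2* (1433), ahead of *eef-1B.1* (1096). The eIF3 subunits of the symbol rule, which assemble in a single complex, ranged from 55.1 to 217 CPM per kb on AL with a median of 113. The median was 58.9 for the cytosolic synthetases and 12.6 for the mitochondrial ones, where *aars-1* was lowest at 3.02 CPM per kb.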

How the data were processed

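Each of the 3 diets had 3 libraries of whole N2 worms. The deposited table holds unnormalized read counts per gene, which the authors made with STAR and htseq-count without strand against WBcel235, per the paper's methods. The submitters' processing notes also name edgeR 3.24.3, and the paper and the labels name different sequencers. No value column lacked a sample and no library was left out. Every within-condition pair of libraries differed by more than sampling noise (chi-square over degrees of freedom of at least 2.24). The fit used edgeR 4.0.16 under R 4.3.3, with filterByExpr, TMM scaling, glmQLFit and glmQLFTest over 9 libraries, with Benjamini-Hochberg adjustment over 14332 genes. The s.e. was derived from the log2 fold change and its F statistic. The common biological coefficient of variation was 6.59%. The study's methods name limma-voom, which was run as an alternative.

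The members and lists were chosen with earlier results of these data known. Named are all *ife*, *ifg*, *inf*, *iff* and *eef* genes, members past both thresholds, and in each other role the 2 highest and the 2 lowest log2 fold changes in each diet against AL. Further members and genes outside the rule (*eif-1.A*, *fars-3*, *cars-1*, *cars-2*, *pek-1*, *cgh-1* and others) were named after their values were seen. The alternatives were limma-voom 3.58.1, DESeq2 1.42.0, scaling by RLE, by total counts or by quantiles, an unfiltered table, a mean CPM of at least 5, a replicate block, fits of only the compared conditions and leaving out each library. Removal of a trend on exon length was added after seeing the data. Positions and exon lengths are from Ensembl release 115. The fit was also run on simulated data with 200 changed genes, as many up as down, which does not test the choice of scaling. Figures were made with Python and matplotlib.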

Additional observations from a re-analysis of the deposited data

How the results depend on the processing

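Scaling changed the counts most. By total counts, DR1 had 35 members higher, 15 lower and 2 upregulated against AL (median 0.20), DR0 had 1 downregulated (median −0.050), and DR0 against DR1 had 16 higher, 35 lower, 0 upregulated and 1 downregulated (median −0.17). By quantile normalization the values were 30, 17 and 2 (median 0.045) in DR1, 1 downregulated (median −0.047) in DR0, and 19 higher, 28 lower and 0 upregulated (median −0.11) in DR0 against DR1. With a mean CPM of at least 5, the medians were −0.042 in DR1 and −0.033 in DR0, with 1 downregulated in DR0 and 0 upregulated in DR0 against DR1. Fitting only the conditions compared gave a median of −0.084 in DR0 against AL. Removing the exon length trend gave medians of −0.23, −0.052 and 0.17 in the 3 comparisons, with 1 downregulated in DR0 and 0 upregulated in DR0 against DR1. The cause of these shifts was not tested. limma-voom, DESeq2, RLE scaling and no filter left the counts of members within 1.5 times.

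Total counts turned in DR1 *eif-3.C* (0.20), *eif-3.F* (0.15), *eif-3.I* (0.13), *ife-2* (0.33), *ifg-1* (0.24), *iff-2* (0.24), *eef-2* (0.25) and *eif-1* (0.32), and quantiles turned the same genes to 0.053, 0.11, 0.033, 0.20, 0.19, 0.45, 0.40 and 0.26. A mean CPM of at least 5 turned *eef-2* in DR1 to 0.00067. In DR0 against DR1, total counts turned *fars-1* (−0.18), *nars-1* (−0.062), *wars-1* (−0.054), *eif-3.G* (−0.071), *sars-2* (−0.088) and *eif-2A* (−0.14). Quantiles turned there *nars-1* (−0.052), *eif-3.G* (−0.011), *eef-1A.1* (−0.13), *eef-1A.2* (−0.38) and *eif-2A* (−0.022), and *eef-1A.1* in DR0 against AL (−0.13).

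Leaving out each library gave 13 to 13 higher and 30 to 34 lower in DR1 (median −0.18 to −0.11), 23 to 24 higher, 22 to 29 lower and 1 to 2 downregulated in DR0 (median −0.12 to −0.10), and 26 to 28 higher, 16 to 18 lower and 0 to 1 upregulated in DR0 against DR1 (median 0.11 to 0.13). The count of 1 came without DR0 replicate 3, that of 0 without DR0 replicate 1. Of the calls of single named genes, 979 were the same without a library, 15 were lost, 5 were gained and 0 turned.

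The replicate numbers did not pair the libraries, since same-numbered libraries had correlations of their deviations of −0.02 to 0.06 and 3 of 9 correlated best with their own number. With the replicate block, 13 members were higher and 32 lower in DR1, 23 and 28 in DR0, and 28 and 16 in DR0 against DR1. The mitochondrial synthetases and *ife-5* had the fewest reads, and *ife-5* was not called in any comparison.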
